A study of Saccharomyces cerevisiae with 232 samples.

Results

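ZRT1, ZRT2, ZRT3, ZAP1, ZPS1 and ADH4 of budding yeast, Saccharomyces cerevisiae, are known as zinc genes that the transcription factor Zap1 switches on. These 6 of the 6692 genes in the expression tables were chosen by name and followed through every strain. All 6 were found in both the footprint and the RNA table.

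When zinc is scarce, Zap1 binds zinc-responsive elements before its target genes and raises their transcription, and when zinc is plentiful Zap1 itself is held inactive by the metal. Its best known targets bring zinc into the cytosol: ZRT1 encodes the high-affinity zinc transporter of the plasma membrane, ZRT2 the low-affinity one, and ZRT3 the transporter that releases zinc from the vacuole. ZAP1 acts on its own gene, ZPS1 encodes a secreted protein related to metalloproteases that is strongly made under zinc limitation, and ADH4 encodes an alcohol dehydrogenase used in the same state. The cells here grew in rich medium, which is not depleted of zinc.

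The study set yeast without single tRNA-modifying activities against yeast with all of them. Each of the 57 deletion strains had 1 gene of a tRNA modification pathway replaced by kanMX in BY4741, a haploid laboratory strain of mating type a, and wild type was BY4741 itself. In strain names D stands for deletion, so trm1D lacks TRM1. All were grown in YPD at 30 °C to mid-log phase. Ribosome footprints, the pieces of mRNA that translating ribosomes shield, came from 127 libraries of cells given cycloheximide, which arrests elongation, at 100 µg/mL for 30 s: 2 libraries for each of 56 strains, 1 for kti13D and 14 of wild type. RNA came from 67 libraries, 1 per strain and 10 of wild type, which are also labelled with cycloheximide at 100 µg/mL. A further 6 footprint libraries (elp3D, mod5D, tan1D, trm7D, tyw4D and wild type) were made without the drug.

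Values are RPKM (reads per kilobase of gene and M mapped reads, M being 1e6), so levels can be set side by side between genes. Recovered depth was 0.809 to 16.262 M reads for footprints (median 3.104 M), 3.757 to 14.137 M for RNA and 3.408 to 7.377 M without the drug. The libraries form 3 sets, told apart by the wild-type mean under each strain in the authors' deposited ratios, and a strain is compared with wild type of its own set. Among wild-type libraries 63.1% of genes differed between sets (limma F test), among them ZRT1 (adjusted p = 0.0107), ZRT2 (0.0281) and ADH4 (0.0461), while ZRT3 did not pass (0.827). The deleted gene was below every wild-type library in the footprints and RNA of 57 of 57 strains. Footprints left on it, in the higher library of a strain, reached 26.6% of the wild-type mean in ncs6D, 11.5% in pus5D and 10.5% in ncs2D. The labels do not say that the libraries of a strain came from separate cultures, so the p-values measure the spread between these libraries.

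Strain labels were checked against mating type and marker genes. URA3 was at 0 in every footprint library and LEU2 at 0 in every strain library, both being deleted in BY4741. MET17, also deleted there, reached 541 RPKM in a pus7D library, against at most 7.75 RPKM in wild type. HIS3, the last gene listed as deleted there, was not absent. It had 89.6 to 129 RPKM in wild type and up to 653 RPKM in a trm7D library, and the reason was not tested. The 4 markers of mating type alpha summed to 0.89 to 5.06 RPKM in wild type, where the 5 markers of mating type a summed to 1440 to 3460 RPKM.

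In 4 strains the footprint libraries disagreed more than 2-fold in ZRT1. The rtt10D libraries held 147 and 15.1 RPKM and the rtt10D RNA 21.3 RPKM. The ncs2D libraries held 50.9 and 7.01 RPKM, with 57.4 RPKM in RNA, and the tyw3D libraries held 135 and 46.1 RPKM, with 121 RPKM in RNA. The gon7D libraries held 0.234 and 3.05 RPKM, which rest on 1 and 11 reads. The first 3 have no single level, and the ZRT1 results over many strains are also given without them, a choice made after seeing the data. The disagreement was large for these libraries: of 4283 genes, 2 differed as much as ZRT1 or more between the rtt10D libraries, 3 between the ncs2D libraries, 60 between the tyw3D libraries and 62 between the gon7D libraries, each count including ZRT1. ZRT2 stood higher with ZRT1 in library 1, at 35.5 against 20.1 RPKM in library 2 of rtt10D and at 35.1 against 18.8 RPKM in library 2 of ncs2D. ZPS1 had 8.41 RPKM, 33 reads, in library 1 of rtt10D and 1.22 RPKM, 7 reads, in library 2.

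The zinc-responsive element, ACCTT and AAGGT with any 1 base between them, reads the same on both strands apart from that base. It was looked for on both strands in the R64 genome of RefSeq, the build of sacCer3, allowing 1 mismatch. The stretch below was chosen because ZRT1 turns out to vary most and holds 2 matches, which begin 319 and 204 bases before the start codon. Capitals mark the matches, of which the second is exact. It is chrVII:20639-20804 on the plus strand.

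ZRT1: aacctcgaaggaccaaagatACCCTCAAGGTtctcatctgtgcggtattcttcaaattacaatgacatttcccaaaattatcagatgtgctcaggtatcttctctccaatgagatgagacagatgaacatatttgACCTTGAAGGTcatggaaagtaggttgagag

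The matches of the other genes are shown with 9 bases on each side, to let them be compared with those of ZRT1. They lie at chrXII:404354-404382 and chrXII:404305-404333 on the minus strand for ZRT2, chrXI:118629-118657 on the plus strand for ZRT3, chrX:333198-333226 on the minus strand for ZAP1, chrXV:34320-34348 and chrXV:34335-34363 on the plus strand for ZPS1, and chrVII:14632-14660 on the plus strand for ADH4.
ZRT2, first: agggacataACCCTAAAGGTtatatgcga
ZRT2, second: tttttcacaACCTTTAGGGTacattgccc
ZRT3: gtgacaacaACCTTAAGGGTaatggactt
ZAP1: cagtcatctACCCTAAAGGTcatgatgaa
ZPS1, first: ttataattgACCTTCAGGGTtaggaccct
ZPS1, second: agggttaggACCCTGAAGGTtttttgtag
ADH4: cttaaatgaACCTTCACGGTtaagcaacc

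Within 500 bases before the start codon, 5 of the 6 genes held a match, as did 118 of 6021 genes in all (1.96%). The match of ADH4 begins 518 bases before its start codon, just outside that window and, counted from the other side, 494 bases before the start codon of MNT2, and within 1000 bases 6 of 6 genes and 3.27% of all genes held one. An exact match within 500 bases was held by ZRT1 and by 9 genes in all. ZRT1, ZRT2 and ZPS1 each held 2 matches. The 2 of ZPS1 begin 329 and 314 bases before the start codon, next to each other without overlap, and those of ZRT2 begin 311 and 262 bases before it. Of 18 other genes known as activated by Zap1, 6 held a match within 500 bases.

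ADH4 (YGL256W, chrVII:15159-16307, plus strand) and ZRT1 (YGL255W, chrVII:20978-22108, plus strand) are neighbours on the left arm of chromosome VII, with 4670 bases and 1 annotated non-coding transcript, SUT532, between them. ZRT2 (YLR130C) is at chrXII:402794-404062 on the minus strand, ZRT3 (YKL175W) at chrXI:118793-120304 on the plus strand, ZAP1 (YJL056C) at chrX:330431-333073 on the minus strand and ZPS1 (YOL154W) at chrXV:34658-35407 on the plus strand. Each is 1 coding exon, and no annotated gene overlaps any of them. The nearest gene deleted in a strain of the series, TYW4, is 21045 bases from ZPS1.

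AAA, CAA and GAA, codons read by tRNAs that both the Elongator and thiolation pathways modify, were rarer than in the median gene in all 6 coding sequences except that of ADH4. Codons of tRNAs that Elongator alone modifies were not counted. AAA, CAA and GAA make up 5.85% of the codons of ZRT1, 8.53% of ZRT2, 8.75% of ZRT3, 6.83% of ZPS1, 10.68% of ZAP1 and 11.78% of ADH4, against a median of 11.31% over 6021 genes (interquartile range 9.07% to 13.29%). Codons that begin with A, which tRNAs modified by the KEOPS complex read, make up 27.73% of ZRT1, 25.65% of ZRT2, 24.9% of ZRT3, 29.44% of ZPS1, 31.5% of ADH4 and 34.02% of ZAP1, against a median of 33.08% (interquartile range 30.37% to 35.78%). ZRT1, ZRT2, ZRT3 and ZPS1 thus lay under the interquartile range in both measures.

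In wild type the vacuolar transporter ZRT3 was the most translated of the 6 genes. Its footprints ran from 62.1 to 79.5 RPKM over 14 libraries (median 70.6). ZRT1 ran from 20.8 to 34.6 RPKM (median 25.3) and ZRT2 from 20.7 to 32.4 RPKM (median 24.4), and these ranges overlap almost wholly. ADH4 followed at 9.76 to 16.6 RPKM (median 13.4), ZAP1 at 3.9 to 7.05 RPKM (median 5.71) and ZPS1 at 0 to 4.56 RPKM (median 2.61). Only ZRT1 with ZRT2 and ZAP1 with ZPS1 overlap as neighbours in this order.

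In RNA the order differed. ZRT3 at 64 to 71.4 RPKM and ZRT2 at 53.0 to 68.7 RPKM overlapped over 10 wild-type libraries, followed without overlap by ADH4 at 46.7 to 52.8, ZRT1 at 24.2 to 36.7, ZAP1 at 13.7 to 17.1 and ZPS1 at 5.29 to 7.47 RPKM. The ratio of mean footprint level to mean RNA level in wild type was thus 1.03 for ZRT3 and 0.791 for ZRT1. It was 0.399 for ZRT2, 0.386 for ZAP1, 0.367 for ZPS1 and 0.277 for ADH4. ZRT1, whose RNA was lower than that of ZRT2, matched it in footprints.

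**Figure D1:**
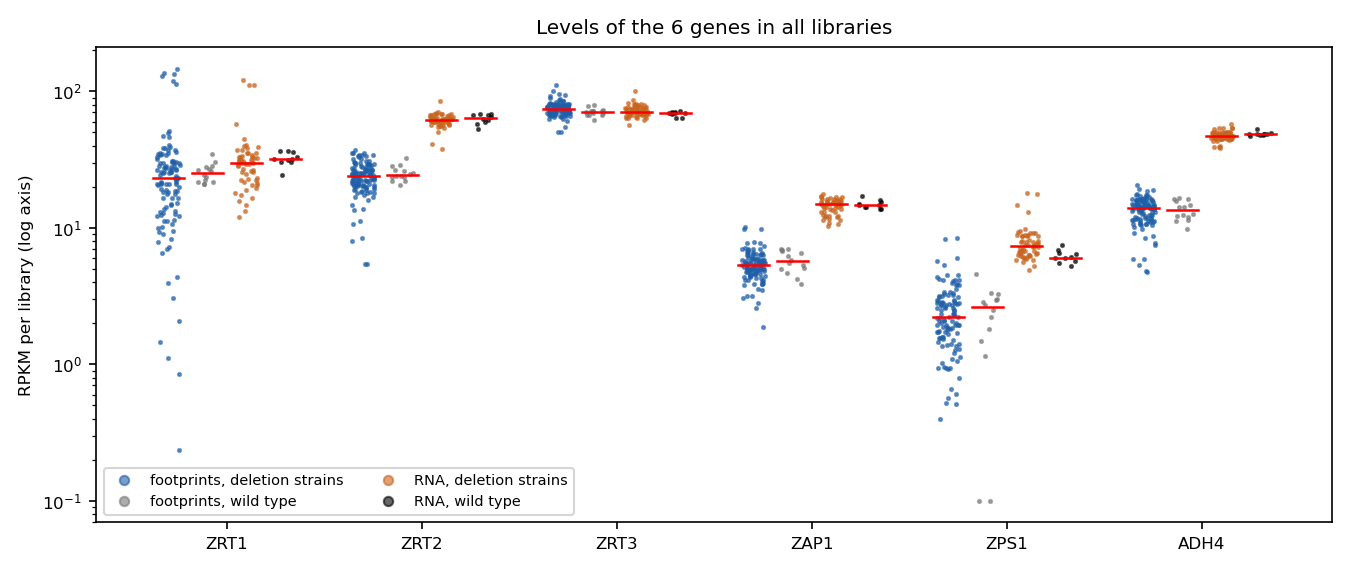
RPKM of the 6 genes in every library on a log axis, with footprints of the deletion strains and of wild type and then RNA of the deletion strains and of wild type for each gene; each point is a library and the red bar a median, and the 2 wild-type libraries in which ZPS1 had 0 RPKM are drawn at 0.1. ZRT1 footprints span 0.234 to 147 RPKM over the 113 strain libraries, against 50.1 to 111 RPKM for ZRT3.

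Across the 113 strain libraries ZRT1 footprints ranged from 0.234 RPKM in gon7D to 147 RPKM in rtt10D, with a median of 23.1 RPKM. ZRT2 ranged from 5.43 to 37.2 RPKM (median 24.1), ZRT3 from 50.1 to 111 RPKM (median 74.8) and ADH4 from 4.78 to 20.7 RPKM (median 14). ZAP1 ranged from 1.89 to 10.1 RPKM (median 5.31) and ZPS1 from 0.399 to 8.41 RPKM (median 2.23). The medians of the strains thus stayed close to those of wild type, and the spread came from some strains at either end.

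A test across genes asked which strains differ from wild type. The 4283 genes averaging 10 RPKM or more were taken, which leaves out ZAP1 and ZPS1 and keeps 4 of the 6 genes. log2 values of RPKM plus 1 were fitted with limma, with Benjamini-Hochberg adjustment over all genes within a strain and a call under 0.05. Each of the 4 genes varied among strains (limma F test, adjusted p = 9.46e-17 for ZRT1, 1.7e-11 for ZRT2, 1.38e-10 for ADH4 and 8e-07 for ZRT3), as did 93.8% of all genes. Without rtt10D, ncs2D and tyw3D the adjusted p of ZRT1 was 2.91e-31, beside 94.1% of genes passing. These strains were left out for their disagreement in ZRT1, which lowers its spread by choice. Over 55 strains with 2 libraries and a known set, 8.17% of all pairs of gene and strain were called higher and 3.98% lower, 12.2% in all. Of the 220 pairs of the 4 genes, 9 were called higher (4.09%) and 25 lower (11.4%). A gene was called in a median of 5 strains. Pseudocount 1 shrinks changes of low genes, so the log2 changes below understate them.

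ZRT1, the high-affinity importer, was called in 13 strains, 3 higher and 10 lower, and 13% of all genes were called in as many. The footprints in trm1D, which lacks a tRNA guanosine methyltransferase, were 129 and 133 RPKM, against 27.8, 27.0, 30.5 and 34.6 RPKM in wild type of the set. In sit4D, which lacks a protein phosphatase that the Elongator pathway needs, they were 119 and 113 RPKM. All 4 of these libraries stand above every wild-type library, and the 2 of a strain lie close together. ZRT1 rose in trm1D by a log2 change of 2.10 ± 0.38 (SE, adjusted p = 4.39e-05) and in sit4D by 1.92 ± 0.38 (adjusted p = 1.71e-05). ZRT1 RNA was high in both, at 110 RPKM in trm1D and 112 RPKM in sit4D, against 31.9 and 36.5 RPKM in wild type of the set. In linear terms, footprints were 437% of wild type in trm1D and 387% in sit4D, and RNA was 323% of wild type in trm1D and 327% in sit4D.

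ZRT1 also rose in tyw3D, which lacks an enzyme of wybutosine synthesis, by 1.38 ± 0.38 (adjusted p = 0.0131), but the 2 libraries, 135 and 46.1 RPKM, differ 2.94-fold. Both are above wild type, and the call is lost when library 1 is left out (0.61) and with quantile normalization (1.24, adjusted p = 0.0536). The other strains of that pathway, tyw1D, trm12D and tyw4D, were not called.

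The deepest falls of ZRT1 were in the strains without a subunit of the KEOPS complex, which adds threonylcarbamoyl adenosine to tRNAs. Footprints were 1.12 and 0.85 RPKM in bud32D, 0.234 and 3.05 RPKM in gon7D and 1.46 and 2.09 RPKM in cgi121D, against 21.0, 23.6, 20.8 and 26.4 RPKM in wild type of the set. The 6 libraries lie far below all 4 of wild type. The log2 changes were -3.59 ± 0.38 in bud32D (adjusted p = 2.95e-13), -3.41 ± 0.38 in gon7D (1.76e-12) and -3.11 ± 0.38 in cgi121D (1.83e-10). In linear terms the mean level was 4.29% of wild type in bud32D, 7.15% in gon7D and 7.72% in cgi121D. These values rest on few reads, 12 in bud32D (95% exact Poisson interval 6.2 to 21.0), 12 in gon7D and 16 in cgi121D (9.15 to 26.0), and the intervals cover counting error only. The sizes depend on the scale: with quantile normalization the changes were -2.51 in bud32D, -2.97 in gon7D and -2.23 in cgi121D, and with a pseudocount of 10 they were -1.58, -1.51 and -1.48 in these strains. In gon7D the change was -2.56 without library 1 and -4.27 without library 2, and all these values were called.

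A further fall was in trm112D, which lacks the partner protein of several methyltransferases. ZRT1 had 3.98 and 4.36 RPKM there, 8 and 4 reads, against 27.0 to 34.6 RPKM in wild type, and fell by 2.58 on the log2 scale (SE 0.38, adjusted p = 1.39e-08). In thiolation strains the footprints were 7.93 and 8.28 RPKM in ncs6D, 6.52 and 10.1 RPKM in uba4D and 9.99 and 9.08 RPKM in urm1D, against 20.8 to 34.6 RPKM in all wild-type libraries. The log2 changes were -1.76 in ncs6D (adjusted p = 0.000293), -1.75 in uba4D (0.000314) and -1.25 in urm1D (0.00783). In Elongator strains ZRT1 was called lower in kti11D (-1.43, adjusted p = 0.000827), elp2D (-1.33, 0.00637) and elp6D (-0.94, 0.0377).

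**Figure D2:**
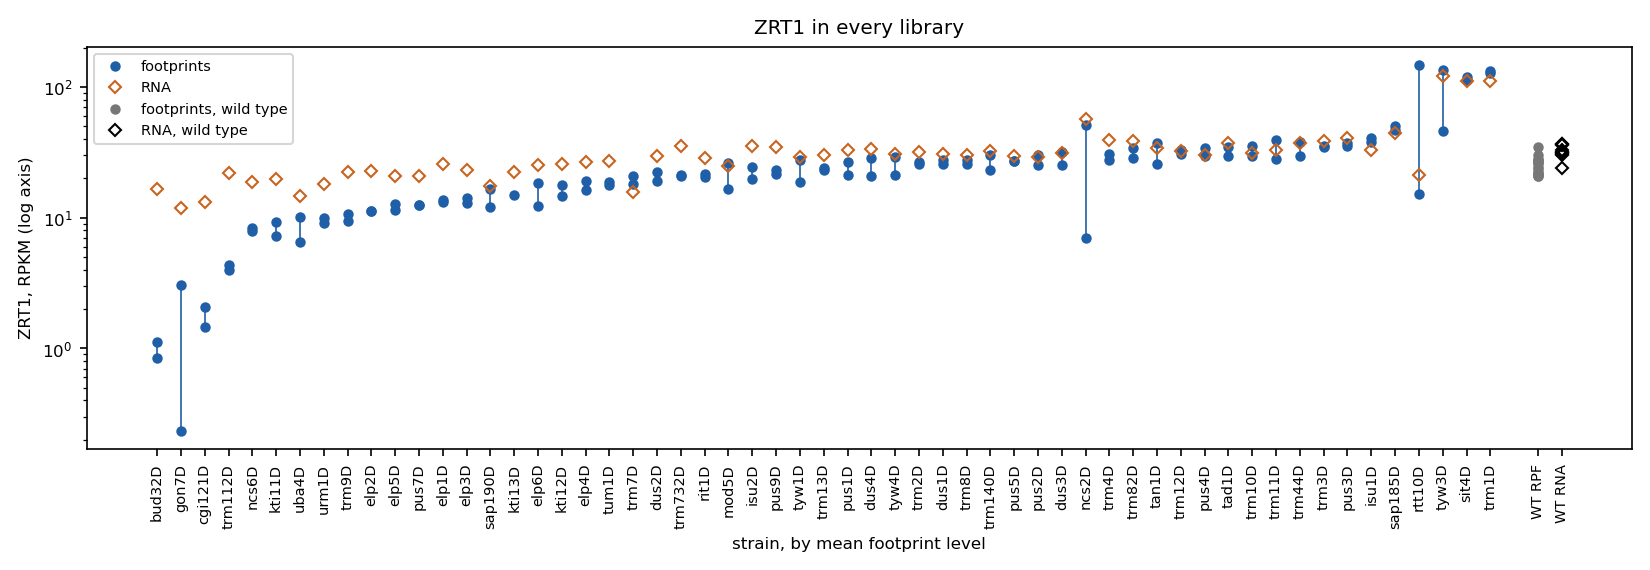
ZRT1 RPKM on a log axis in every footprint library (filled circles, joined for the 2 libraries of a strain) and RNA library (open diamonds), with strains ordered by mean footprint level and wild type at the right. The KEOPS strains and trm112D stand at the low end with RNA above footprints, and rtt10D, tyw3D, sit4D and trm1D at the high end.

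The 3 strains whose libraries disagree widen the spread that every ZRT1 test uses. They were picked for that disagreement, while gon7D, whose libraries also disagree, was kept. Leaving them out thus lowers the SE of ZRT1 by choice, in bud32D from 0.377 to 0.202. More ZRT1 calls follow from that choice and are no separate support. Without rtt10D, ncs2D and tyw3D, ZRT1 was called in 21 of 52 strains, 2 higher and 19 lower, beside 8.55% and 4.26% of all pairs. These include the other 12 calls, the 9 added all being lower: elp1D, elp3D, elp4D, elp5D, kti12D, tum1D, pus7D, sap190D and trm9D. The added changes ran from -1.11 in trm9D (adjusted p = 6.47e-05) to -0.68 in tum1D (adjusted p = 0.0456). With library 1 of each strain left out 21 strains were called, and with library 2 left out 25, but each strain then has a single library and is assumed to vary like the wild-type libraries, which alone give the spread.

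ZRT2, the low-affinity importer, fell in 8 strains and was called higher in none, and 30.8% of all genes were called in as many. With all wild-type libraries pooled it was called higher in tyw3D (0.49, adjusted p = 0.0228). The footprints were 5.43 and 5.43 RPKM in gon7D, 7.96 and 8.49 RPKM in bud32D and 11.1 and 13.6 RPKM in cgi121D, against 26.0, 23.5, 28.5 and 26.4 RPKM in wild type of the set. In trm112D they were 10.6 and 13.6 RPKM, against 24.1, 28.9, 25.4 and 32.4 RPKM in wild type of the set. No strain library reached the wild-type range in these 4 strains. The log2 changes were -2.07 ± 0.18 in gon7D (adjusted p = 9.99e-17), -1.55 ± 0.18 in bud32D (9.38e-12), -1.13 ± 0.18 in trm112D (9.96e-08) and -1.02 ± 0.18 in cgi121D (4.08e-06). ZRT2 also fell, less deeply, in sap190D, elp2D, elp5D and kti11D, by 0.46 to 0.59 on the log2 scale. In the strains with the clearest rise of ZRT1 it was not called. ZRT2 had 35.5 and 33.9 RPKM in trm1D (0.32, adjusted p = 0.438). It had 23.2 and 18.0 RPKM in sit4D (-0.41, adjusted p = 0.053), where it was called lower with libraries centred on their medians (-0.54, 0.0128), with quantile normalization (-0.57, 0.00906) and without rtt10D, ncs2D and tyw3D (-0.41, 0.0301).

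ZRT3, the vacuolar exporter, was called in 6 strains, and 48.7% of all genes were called in as many. It rose in trm7D, whose missing enzyme methylates riboses of the tRNA anticodon loop, at 111 and 100 RPKM, against 66.8 to 73.2 RPKM in 6 wild-type libraries of the set (median 70.8). Both trm7D libraries lie above all of them, and the log2 change was 0.58 ± 0.09 (adjusted p = 2.8e-08). ZRT3 also passed in trm112D (0.30, adjusted p = 0.00277), uba4D (0.28, 0.0162) and sit4D (0.21, 0.0453), and fell in cgi121D by 0.47 (adjusted p = 2.54e-05) and in pus3D by 0.25 (adjusted p = 0.027). The median of all genes was 0.39 higher in trm112D, and with libraries centred on their medians ZRT3 was -0.09 there (adjusted p = 0.437). The same centring also ended the calls in uba4D (0.17, adjusted p = 0.225) and sit4D (0.08, 0.51), as did quantile normalization, so of the 4 higher calls that in trm7D alone was made under all 3 scalings. The median of all genes also stood 0.14 higher in bud32D, 0.19 in gon7D, 0.19 in elp6D and 0.13 in trm7D, and with centred libraries the falls of ZRT1 and ZRT2 in bud32D, gon7D and trm112D were still called.

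ADH4, the alcohol dehydrogenase, fell in 5 strains and passed as higher in 2, and 38.7% of all genes were called in as many. Its footprints were 5.94 and 5.94 RPKM in cgi121D, 7.70 and 8.71 RPKM in bud32D and 9.23 and 8.45 RPKM in gon7D, against 16.6, 16.2, 16.2 and 14.1 RPKM in wild type of the set. In trm7D they were 4.78 and 4.82 RPKM, against 9.76 to 15.7 RPKM in 6 wild-type libraries (median 12.1). In trm112D they were 5.38 and 7.51 RPKM, 11 and 7 reads, against 12.7, 11.3, 14.2 and 12.4 RPKM. The log2 changes were -1.27 ± 0.17 in cgi121D (adjusted p = 1.71e-09), -1.22 ± 0.16 in trm7D (5.55e-10), -0.88 ± 0.17 in trm112D (3.22e-06), -0.87 in bud32D (5.76e-06) and -0.77 in gon7D (4.15e-05). ADH4 rose in elp6D (0.44, adjusted p = 0.0255) and sit4D (0.39, adjusted p = 0.0453), and neither call held with the libraries centred on their medians (adjusted p = 0.288 and 0.219).

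**Figure D3:**
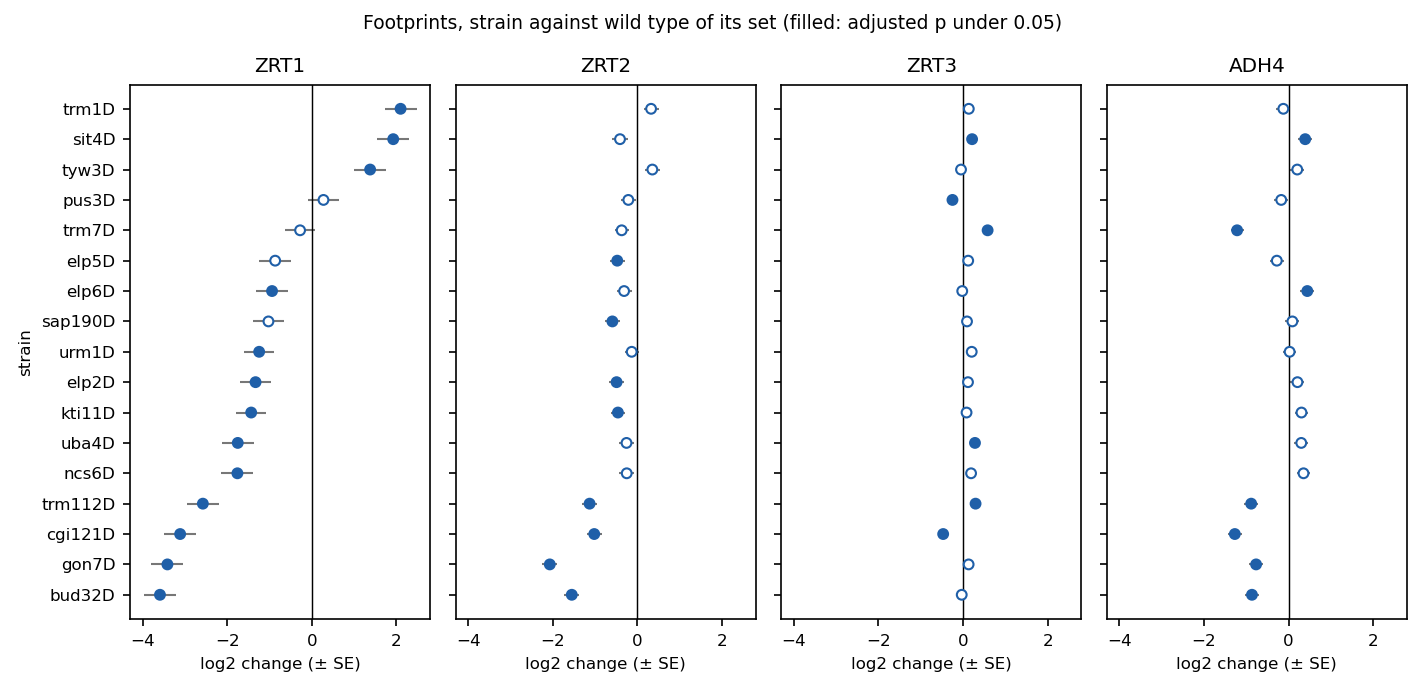
log2 change of footprints, with its SE, of ZRT1, ZRT2, ZRT3 and ADH4 in the 17 strains called for at least 1 of them, each against wild type of its set; filled points have an adjusted p under 0.05. The falls of ZRT1, ZRT2 and ADH4 meet in bud32D, gon7D, cgi121D and trm112D, where ZRT3 stays between -0.47 and 0.30.

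ZAP1 and ZPS1 lie under the filter on low values in the footprints. In a fit of all 6408 genes with a value, where 6.25% of pairs were called higher and 2.88% lower, ZAP1 rose in 1 strain and fell in 5, and ZPS1 was called in none, with 3 strains at an unadjusted p under 0.05. ZAP1 had 10.1 and 9.84 RPKM in trm1D, against 6.89, 7.05, 4.20 and 4.99 RPKM in wild type of the set, a log2 change of 0.72 ± 0.19 (adjusted p = 0.015). Both trm1D libraries exceed every wild-type library of the series. ZAP1 had 3.48 and 1.89 RPKM in bud32D, against 7.04, 6.82, 6.52 and 6.27 RPKM in wild type of the set (-1.09, adjusted p = 9.93e-07). It fell in gon7D by 0.70 (adjusted p = 0.000931), in pus3D by 0.63 (0.00792), in elp2D by 0.61 (0.0171) and in uba4D by 0.53 (0.0423).

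A strain has 1 RNA library, so RNA was counted as different by a rule, with no test. It had to lie outside all 10 wild-type libraries and at least 2-fold from wild type of the set, on log2 of RPKM plus 1. Over all genes tested, 0.686% of pairs were so counted as higher and 0.337% as lower. ZRT1 was the only one of the 5 genes tested with such a value, with higher values in tyw3D (121 RPKM), sit4D (112 RPKM) and trm1D (110 RPKM) and lower ones in gon7D (12 RPKM), uba4D (14.6 RPKM) and trm7D (15.6 RPKM). Wild-type RNA of ZRT1 was 24.2 to 36.7 RPKM. In cgi121D ZRT1 RNA was 13.2 RPKM, lower than in uba4D and trm7D, against a mean of 27.3 RPKM in wild type of the set. Its difference of -0.987 on the log2 scale with 1 added just missed the rule. ZPS1, under the filter in RNA too, had 18.0 RPKM in bud32D, 17.8 RPKM in trm112D, 14.7 RPKM in trm7D and 13.2 RPKM in cgi121D, against 5.29 to 7.47 RPKM in wild type. These 4 values rest on 59, 146, 151 and 47 reads.

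Strains of a pathway were also taken as each other's replicates. They lack different genes and are not copies of 1 condition, so these p-values measure the spread between such strains. With 1 value per strain, the 3 KEOPS strains had lower footprints of ZRT1 (log2 change -3.54 ± 0.31, adjusted p = 4.53e-12), ZRT2 (-1.57 ± 0.15, 5.65e-11) and ADH4 (-0.98 ± 0.18, 1.03e-05), while ZRT3 did not pass (-0.11 ± 0.09, 0.293). In that comparison 37.1% of genes were called higher and 21% lower, and the median of all genes was 0.13. Their RNA was also lower for ZRT1 (-1.04 ± 0.33, adjusted p = 0.00648), ZRT2 (-0.40 ± 0.11, 0.00258) and ADH4 (-0.26 ± 0.07, 0.00305), with 15.5% of genes called lower and 44.1% higher. ZRT3 passed as higher in RNA (0.23, adjusted p = 0.0314), which became -0.01 with libraries centred on their medians (adjusted p = 0.952) and 0.03 without gon7D (0.797). In bulk samples fewer cells that make an mRNA and less of it per cell cannot be told apart.

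Translational efficiency was taken as the change of footprints that RNA does not share, and tested in limma as the interaction of assay and pathway. The fit took the footprint and RNA values of a strain as separate samples and did not pair them. Its SEs and p-values, here and for the other pathways, thus do not measure the spread of the difference within strains. In the KEOPS strains 2.98% of genes were called higher and 6.3% lower in it. It was lower for ZRT1 (-2.50 ± 0.46, adjusted p = 5.63e-05), ZRT2 (-1.18 ± 0.20, 7.95e-06) and ADH4 (-0.73 ± 0.20, 0.013), and ZRT3 did not pass (-0.34 ± 0.13, adjusted p = 0.08). With a pseudocount of 10, which weighs low values less, the efficiency change of ZRT1 was -0.89 (adjusted p = 0.095), that of ADH4 -0.34 (0.0603) and that of ZRT2 -0.64 (0.00109). Without the set term ADH4 was -0.48 (adjusted p = 0.0848), with quantile normalization -0.30 (0.305), and without cgi121D -0.53 (0.1).

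In single strains the ratio of footprints to RNA of ZRT1 was 0.0594 in bud32D, 0.134 in cgi121D and 0.137 in gon7D, against 0.842 in wild type of the set. That of ZRT2 was 0.218 in bud32D, 0.207 in cgi121D and 0.133 in gon7D, against 0.451 in wild type. In trm112D the ratio of ZRT1 was 0.191, against 0.876 in wild type of the set, and that of ZRT2 was 0.178, against 0.411. ADH4 RNA in trm112D was 57.4 RPKM, the highest of the 57 strains, and its ratio was 0.112, against 0.26 in wild type. In trm7D the ratio of ZRT1 went the other way, 1.26 against 0.727 in wild type of the set, with RNA at 47.2% and footprints at 81.5% of wild type. Without cycloheximide, in 1 library each, ZRT1 footprints were 15.8 RPKM in trm7D and 30.3 RPKM in wild type, a deeper fall than with the drug. The ratio of ADH4 in trm7D was 0.121 against 0.259. In the authors' deposited table of ratios over wild type, whose treatment of low values is not given in the sources used here, ZRT1 stood at 0.142 and 0.124 in bud32D, 0.205 and 0.257 in cgi121D, 0.112 and 0.368 in gon7D and 1.793 and 1.564 in trm7D. With 1 added to each RPKM, the larger deposited ratios of the KEOPS libraries were matched to a median log2 difference of 0.0003 to 0.0004. The ratios of single strains given before have nothing added.

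**Figure D4:**
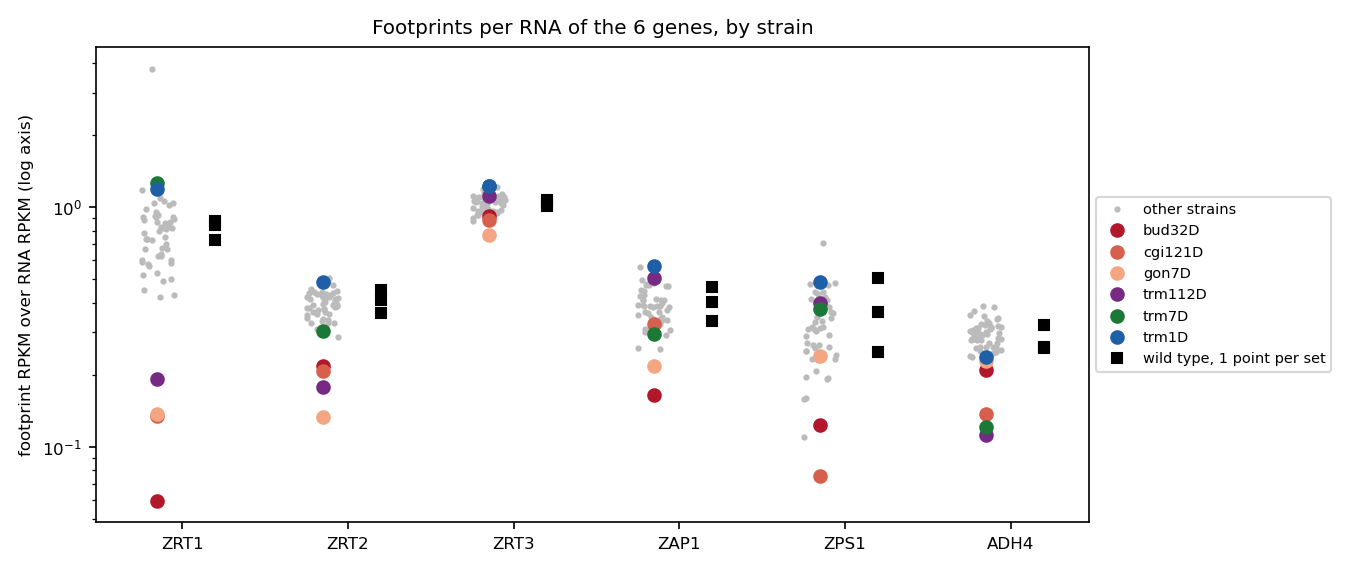
Mean footprint RPKM over RNA RPKM of the 6 genes on a log axis, with the strains at the left of each gene (6 of them coloured) and wild type at the right, 1 point per processing set. The 3 KEOPS strains and trm112D lie under wild type for ZRT1, ZRT2 and ADH4, and the single high ZRT1 point at 3.8 is rtt10D, whose 2 libraries disagree.

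Mating type markers moved in the KEOPS strains. In bud32D and gon7D, 4 of 5 markers of mating type a were under every wild-type library, and the 5 summed to 408 to 777 RPKM and 430 to 638 RPKM, against 1440 to 3460 RPKM in wild type. In cgi121D 2 of 5 were under it and the sum was 1630 to 2530 RPKM. The 4 markers of mating type alpha summed to 5.38 to 8.19 RPKM in bud32D, 4.98 to 17.8 RPKM in gon7D and 0.134 to 0.408 RPKM in cgi121D, against 0.89 to 5.06 RPKM in wild type. 1 of the 4, STE3, was above wild type in 2 of these strains, at up to 14 RPKM, and MF(ALPHA)2 was at 0 in all 6 libraries. ZRT1, ZRT2 and ADH4 fell in cgi121D as well. In trm112D 3 of 5 markers of mating type a were above wild type, at a sum of 6390 to 7820 RPKM, in ncs2D 2 were above it, and in rtt10D 5 of 5 were under it, at 806 to 1150 RPKM. In sit4D 2 of 5 were under wild type and 1 of the 4 markers of mating type alpha above it, at a sum of 4.1 to 5.24 RPKM. In trm7D 1 of 5 was under wild type, at a sum of 1330 to 1680 RPKM, and 1 of 4 above it, at 2.38 to 2.83 RPKM. In trm1D no marker of either list lay outside wild type in both libraries. Their part in the results was not tested.

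The 9 Elongator strains, which lack the wobble uridine modification complex or its helpers, had ZRT1 footprints of 7.28 to 19.2 RPKM in 17 libraries (median 13.3), all below the 14 wild-type libraries (20.8 to 34.6 RPKM). By pathway ZRT1 fell by 0.91 (SE 0.19, adjusted p = 9.64e-05) and ZRT2 by 0.29 (SE 0.09, adjusted p = 0.0106), beside 31.3% of genes called higher and 13.5% lower. RNA of ZRT1 was 19.7 to 26.5 RPKM (-0.47 ± 0.20, adjusted p = 0.0674), and ZAP1 RNA fell by 0.30 (SE 0.06, adjusted p = 0.000145), beside 17.9% of genes called higher and 12.1% lower. ZAP1 RNA was 10.4 to 13.7 RPKM in these strains, against 13.7 to 17.1 RPKM in wild type.

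The 5 thiolation strains, which lack sulfur transfer to the same uridine, had ZRT1 footprints of 6.52 to 50.9 RPKM (median 9.53), the highest being library 1 of ncs2D. By pathway ZRT1 fell by 1.16 (SE 0.24, adjusted p = 0.000327), or by 1.30 without ncs2D (adjusted p = 0.000259), and ZRT3 passed as higher (0.19 ± 0.07, adjusted p = 0.0475, a call kept in 19 of the alternatives and lost in 22), beside 15.7% of genes called higher and 8.1% lower. Their ZAP1 RNA fell by 0.22 (SE 0.08, adjusted p = 0.0365), beside 10.6% of genes called higher and 5.17% lower, a call lost without urm1D (adjusted p = 0.163), uba4D (0.092) or ncs6D (0.144). For ZRT1 the efficiency change was -0.44 ± 0.28 in Elongator strains (adjusted p = 0.557) and -0.62 ± 0.36 in thiolation strains (0.999), neither past the threshold, beside 0.682% of genes called higher and 0.282% lower in Elongator strains and 0 in thiolation strains, where 165 had an unadjusted p under 0.05. In the 3 Trm7 strains ZRT3 passed (0.31 ± 0.09, adjusted p = 0.0473), beside 1.17% of genes called higher, 0.747% lower and, in RNA, 0.0199% lower, and without trm7D it did not (0.17, adjusted p = 0.999). No member was called by pathway in the wybutosine, pseudouridine or dihydrouridine strains, in each of which limma called 0 genes (0%) in any measure. At an unadjusted p under 0.05 the footprint fit held 265 genes in wybutosine, 147 in pseudouridine and 75 in dihydrouridine strains, none of them a member, and in RNA ADH4 passed it in wybutosine strains (-0.15, unadjusted p = 0.0191). Over the 7 pathways, 8 of 28 tests of the 4 genes tested in footprints were called (28.6%), beside 18.4% over all genes. In RNA it was 6 of 35 tests of 5 genes (17.1%), beside 15.1%, and in efficiency 3 of 28 tests of 4 genes (10.7%), beside 1.46%. ZPS1 was tested in none.

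**Figure D5:**
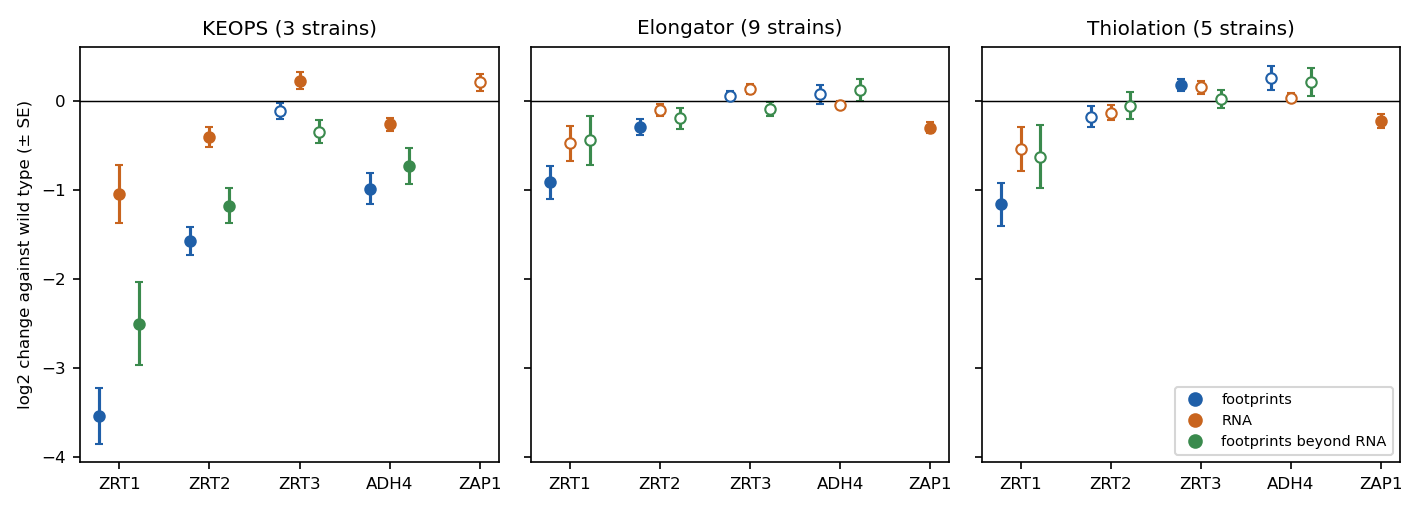
log2 change with its SE in footprints, RNA and footprints beyond RNA for the strains of 3 pathways against wild type; filled points have an adjusted p under 0.05, and ZAP1 is shown in RNA alone. In KEOPS strains ZRT1, ZRT2 and ADH4 lie below 0 in all 3 measures, and in Elongator and thiolation strains the fall of ZRT1 footprints is -0.91 and -1.16.

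Libraries made without cycloheximide, 1 per strain and so without a test, were read as values alone. Their strain label gives BY4741 for all 6 while the titles name the deletions, and the titles were followed: the gene named in the title was lower in that library than in each of the others in 5 of 5 deletion libraries, at 0.155 to 1.26 RPKM, against 13.3 to 66.6 RPKM in wild type. ZRT1 had 15.8 RPKM in trm7D and 19.2 RPKM in elp3D, the 2 lowest, against 30.3 RPKM in wild type, and 40.6 RPKM in tan1D, the highest. ZRT3 was highest and ADH4 lowest in trm7D, at 120 and 4.07 RPKM, against 73.9 and 13.8 RPKM in wild type. ZPS1 had 7.79 RPKM in trm7D, 20 reads, against 1.22 RPKM in wild type.

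Levels were also compared over the 56 strains with a set. Taking the strain mean of log2 footprints minus the mean of the strains of its set, Pearson r was 0.73 between ZRT1 and ZRT2 (Spearman rho 0.74) and 0.67 without the 2 strains farthest out. It was 0.72 without rtt10D, ncs2D and tyw3D. In RNA r was 0.60, and 0.49 without these strains. Between ZRT1 and ZAP1 r was 0.47 in footprints and 0.39 in RNA, between ZRT1 and ZRT3 -0.09 and -0.38, and between ZRT1 and ADH4 0.29 and 0.02. Without the same 3 strains these values were 0.43 and 0.35 for ZAP1, -0.09 and -0.38 for ZRT3 and 0.31 and -0.10 for ADH4. These values describe strains that share set and depth, and the genes of a library share its depth. Set means were taken over all strains of a set, also where strains were then left out. In the set of 6 strains, bud32D, gon7D and cgi121D pull the mean of ZRT1 and ZRT2 down. The others, elp5D, trm9D and kti13D, thus stand higher by this measure than against wild type. Every r here and in the next paragraph carries this. The footprint level of a gene followed its own RNA level most for ZRT1 (r = 0.78 over 56 strains, 0.83 without those 3), then ZRT2 (0.62), ZRT3 (0.58), ZPS1 (0.32), ADH4 (0.28) and ZAP1 (0.21).

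By Pearson r over the same 56 strains among 4283 genes, the 5 patterns most like ZRT1 were ZRT2 (0.73), PHO5, a secreted acid phosphatase (0.73), ACS2, an acetyl-CoA synthetase (0.72), THI7, a thiamine transporter (0.71), and PHO8, the vacuolar alkaline phosphatase (0.70). Without the KEOPS strains these 5 had r of 0.70 to 0.76, and without rtt10D, ncs2D and tyw3D 0.70 to 0.74. The set means still held the strains left out, so these values cannot show the patterns free of those strains. Those most like ZRT2 were PHO12, an acid phosphatase (0.81), and RPP0, a protein of the ribosomal stalk (0.81). For ADH4 they were CWP1, a cell wall protein (0.81), and ENO2, an enolase (0.74), and for ZRT3 CAD1, a transcription factor (0.67), and SOL2 (0.64). PHO5 and PHO12 have near-identical copies in the genome, so their levels are uncertain.

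Other genes of Zap1 were called about as often as genes in general. Of the 18 listed, 13 were tested, and 64 of their 715 pairs with strains were called higher (8.95%) and 27 lower (3.78%), close to the shares over all genes. Those called in most strains were ICY2 (22 higher, 1 lower), FET4, a low-affinity iron transporter (4 higher, 7 lower), and IZH2, a membrane receptor-like protein (9 higher, 2 lower), and only 0.304% of all genes were called in as many strains as ICY2. FET4 had 9.68 and 6.72 RPKM in bud32D, against a wild-type mean of 36.5 RPKM, and fell there by 2.04 (adjusted p = 8.62e-14), in gon7D by 1.43 (9.04e-09), in trm112D by 1.26 (2.53e-07) and in cgi121D by 1.23 (1.75e-06). ICY2 rose in trm7D, at 554 and 572 RPKM, against a wild-type mean of 55.4 RPKM (3.32 ± 0.17, adjusted p = 7.44e-29), and also in trm1D (0.69, 0.0102), and fell in trm112D by 0.77 (0.000117).

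In the KEOPS strains by pathway 3 of the 13 were higher in footprints, PIS1, ICY2 and TSA1, and 4 lower, FET4, ZRC1, IZH1 and IZH4, with a list median of 0.06 beside 0.13 over all genes. In trm1D 1 of 13 was higher, ICY2, beside 2.66% of all genes, and none of the 13 was lower, beside 0.7%. In sit4D 4 were higher, beside 26.9% of all genes, and 3 lower, beside 18.5%, and in trm112D 5 were higher, beside 58.9%, and 4 lower, beside 13.1%. Thus the rise of ZRT1 in trm1D came with calls of ZAP1 and ICY2 but of none of the other 12 genes of the list tested there.

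ADH1 and ADH3, alcohol dehydrogenases that Zap1 is known to lower through upstream transcripts, were called higher in 6 (5.45%) and lower in 25 (22.7%) of 110 pairs, beside 8.17% and 3.98% over all genes. RTC4, the third gene of this kind listed, was under the filter. Both fell in trm112D, ADH1 by 1.80 (adjusted p = 2.75e-29) and ADH3 by 0.35 (1.31e-07). Of the zinc transporters COT1, MSC2 and YKE4, which are not known as Zap1 targets, 11 of 165 pairs were called higher (6.67%) and 5 lower (3.03%).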

How the data were processed

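The authors deposited footprint and RNA levels as RPKM for 6692 genes, and a ratio table (a strain's footprint over RNA value, relative to wild type). Per the submitters' processing notes, the tools were HOMER 4.6, SAMtools and TopHat2 2.0.12 and the build was sacCer3. Whether counting used strand is not given in the sources used here. Footprints of 27 to 34 nt were isolated, per the labels' protocols. The codon and RiboMeth-seq tables and 12 columns of the ratio table were not used here.

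Depth was recovered from RPKM and coding lengths of R64, since 95.5% to 98.6% of footprint values of up to 20 reads came out whole within 0.1. Processing sets were read from the ratio table (11, 39 and 6 strains), and dus2D, which matched none, entered no fit. log2 of RPKM plus 1 was fitted with limma 3.58.1 (trend) in R 4.3.3, set as a term, over genes averaging 10 RPKM or more, with Benjamini-Hochberg adjustment. The fits were tested on simulated data with known changes. The genes named are the 6 members with their 3 largest rises and falls, the 3 genes of other lists called in most strains, and the genes of most similar pattern (5 for ZRT1, 2 for each other gene tested). Some further values are named beside them, chosen after they were seen. Members, lists and strain groups were chosen with earlier results of these data known. Among footprint libraries with the drug, no wild-type library copied another and no strain's libraries copied each other. Chi-square per gene was at least 1.24 for pairs in wild type and at least 1.42 for pairs within strains. Other pairs, RNA libraries and libraries without the drug were not compared. Alternatives were pseudocounts, filters, scalings, wild-type references and left-out libraries or strains.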

Additional observations from a re-analysis of the deposited data

Results flagged for a closer look

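In 84 groups of 4 to 10 samples of the 6 genes (wild-type libraries, and strains of a pathway), 6 held a lowest or highest sample whose gap to the next passed Dixon's 95% critical value, and chance flags about 1 in 20 groups. ZRT1 RNA was 24.2 RPKM in wild-type library 9, the lowest of the 10, and ADH4 RNA was 52.8 RPKM in wild-type library 6, the highest of the 10. Among the wybutosine strains tyw3D stood apart in ZRT1, with 121 RPKM in RNA and a mean of 90.7 RPKM in footprints. Among the thiolation strains uba4D stood apart in ZPS1 footprints, with a mean of 3.62 RPKM, which rests on 14 reads. Among the pseudouridine strains pus3D stood apart in ADH4 footprints, with a mean of 11.1 RPKM, the lowest of the 7.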

How the results depend on the processing

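Counts of strains called for ZRT1, ZRT2, ZRT3 and ADH4 were 13, 8, 6 and 7, and the same 13, 8, 6 and 7 with the replicate block. Whether the numbers pair the libraries was not settled. Over 55 strains, the difference between libraries 1 and 2 was correlated over genes with that between wild-type libraries 1 and 2. The median r was 0.004 (-0.076 to 0.129). In the sample order, wild-type libraries 1 and 2 both stand among the first libraries of strains. Neither this r nor the replicate block, which uses the same wild-type numbers, can therefore show a round that libraries share. Later wild-type libraries stand among the second libraries of strains, and the main fits held no term for rounds read from that order. For ZRT1 the count was 21 to 25 with one library of each strain left out, where the wild-type libraries alone give the spread, and 21 without rtt10D, ncs2D and tyw3D, chosen after seeing the data. For ZRT2 it was 5 with no filter, and without bud32D, gon7D and trm112D it was 5 for ZRT2 and 4 for ADH4. Pathway calls were 8 in footprints (4 genes tested), 6 in RNA (5) and 3 in efficiency (4); in genes of at least 50 RPKM, which leave fewer tested, they were 2, 3 and 0, and with a pseudocount of 10 efficiency had 1. Of 1156 recomputed single values of 36 results, 1067 kept direction and call, 86 lost the call and 3 reversed: ZRT3 in trm112D, -0.09 when libraries were centred on medians and -0.072 when quantile normalized, and ZRT3 RNA in KEOPS strains, -0.007 when centred. The cause was not tested. Most lost calls were of ZRT3 in the thiolation strains (22 lost, 19 kept) and the Trm7 strains (27 lost, 14 kept). The filter of 50 RPKM left ZRT3 alone among strain tests. Depth limits the lowest values, since ZRT1 in KEOPS strains and trm112D rests on 12 to 16 reads per strain.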
